A study of Mus musculus with 25 samples.

Results

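The motile cilium genes described here are 60 genes of the axonemal dyneins, radial spokes, central pair, doublet microtubules, dynein assembly factors and their regulators, taken by symbol from the 54429 entries of the expression table. All 60 were found and all 60 were among the 19805 genes tested. RNA had been sequenced from cortical astrocytes of C57BL/6J mice that were purified by immunopanning, in which cells are caught on a dish coated with an antibody, here against the astrocyte adhesion protein HepaCAM, and then cultured. An EGFR inhibitor and its DMSO control gave 3 libraries each, and a P53 inhibitor and its own DMSO control gave 3 each. Both inhibitors were added on day 2 in vitro; their identity, their dose and the harvest day are not stated in the labels. Cells with HBEGF, a growth factor ligand of EGFR, and cells from which it was withdrawn on the day of preparation gave 2 libraries each. A time course of the cultures has 3 libraries each for day 2, day 7 and day 14 in vitro. No genetic modification is named in the labels of any group. The 25 libraries held 4010268 to 9691449 counted reads (median 6107732), of which 1574 to 12970 per library came from the 60 genes.

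Motile cilia beat by sliding the outer doublet microtubules of the axoneme against each other. Dynein arms on the doublets drive the sliding, radial spokes and the central pair of microtubules regulate it, and nexin links hold the doublets together. In the brain the beating cilia sit in tufts on ependymal cells, which line the ventricles, whereas an astrocyte usually carries a single primary cilium without dynein arms. Expression of the axonemal genes is driven by FOXJ1 and the RFX transcription factors, and in multiciliated cells GEMC1 and multicilin act above them.

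The transcripts rose together when EGFR signalling was blocked or its ligand was left out. In CPM, the counted reads of a gene after every library is scaled to the same total, the 60 genes summed to 409, 424 and 411 in the 3 DMSO libraries and to 1539, 1598 and 1387 in the 3 with EGFR inhibitor. With HBEGF the sums were 416 and 352, and after withdrawal 1984 and 2014. The 5 libraries with inhibitor or without HBEGF stood above the other 20, the highest of which reached 577.

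In the test, limma on log2(CPM + 1) over all 25 libraries, a gene was called when its Benjamini-Hochberg adjusted p was below 0.05. With EGFR inhibitor 56 of the 60 genes were called higher and 0 lower, where 22.5% of all tested genes were called higher and 20.7% lower. After HBEGF withdrawal 59 were called higher and 0 lower, against 15.9% and 20.1% of all tested genes. The median log2 change over the 60 genes was 1.82 with inhibitor and 2.63 after withdrawal, and over all tested genes it was 0.06 and -0.03. Every treated library lay above every control library for 56 genes with inhibitor and 59 after withdrawal, which held for 28.0% and 28.1% of all tested genes. With the P53 inhibitor 0 of 60 genes were called in either direction, against 0.121% of all genes called higher and 0.353% lower, and 4 had an unadjusted p below 0.05. Voom on the recovered reads also called 0 of 60 there.

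**Figure D1:**
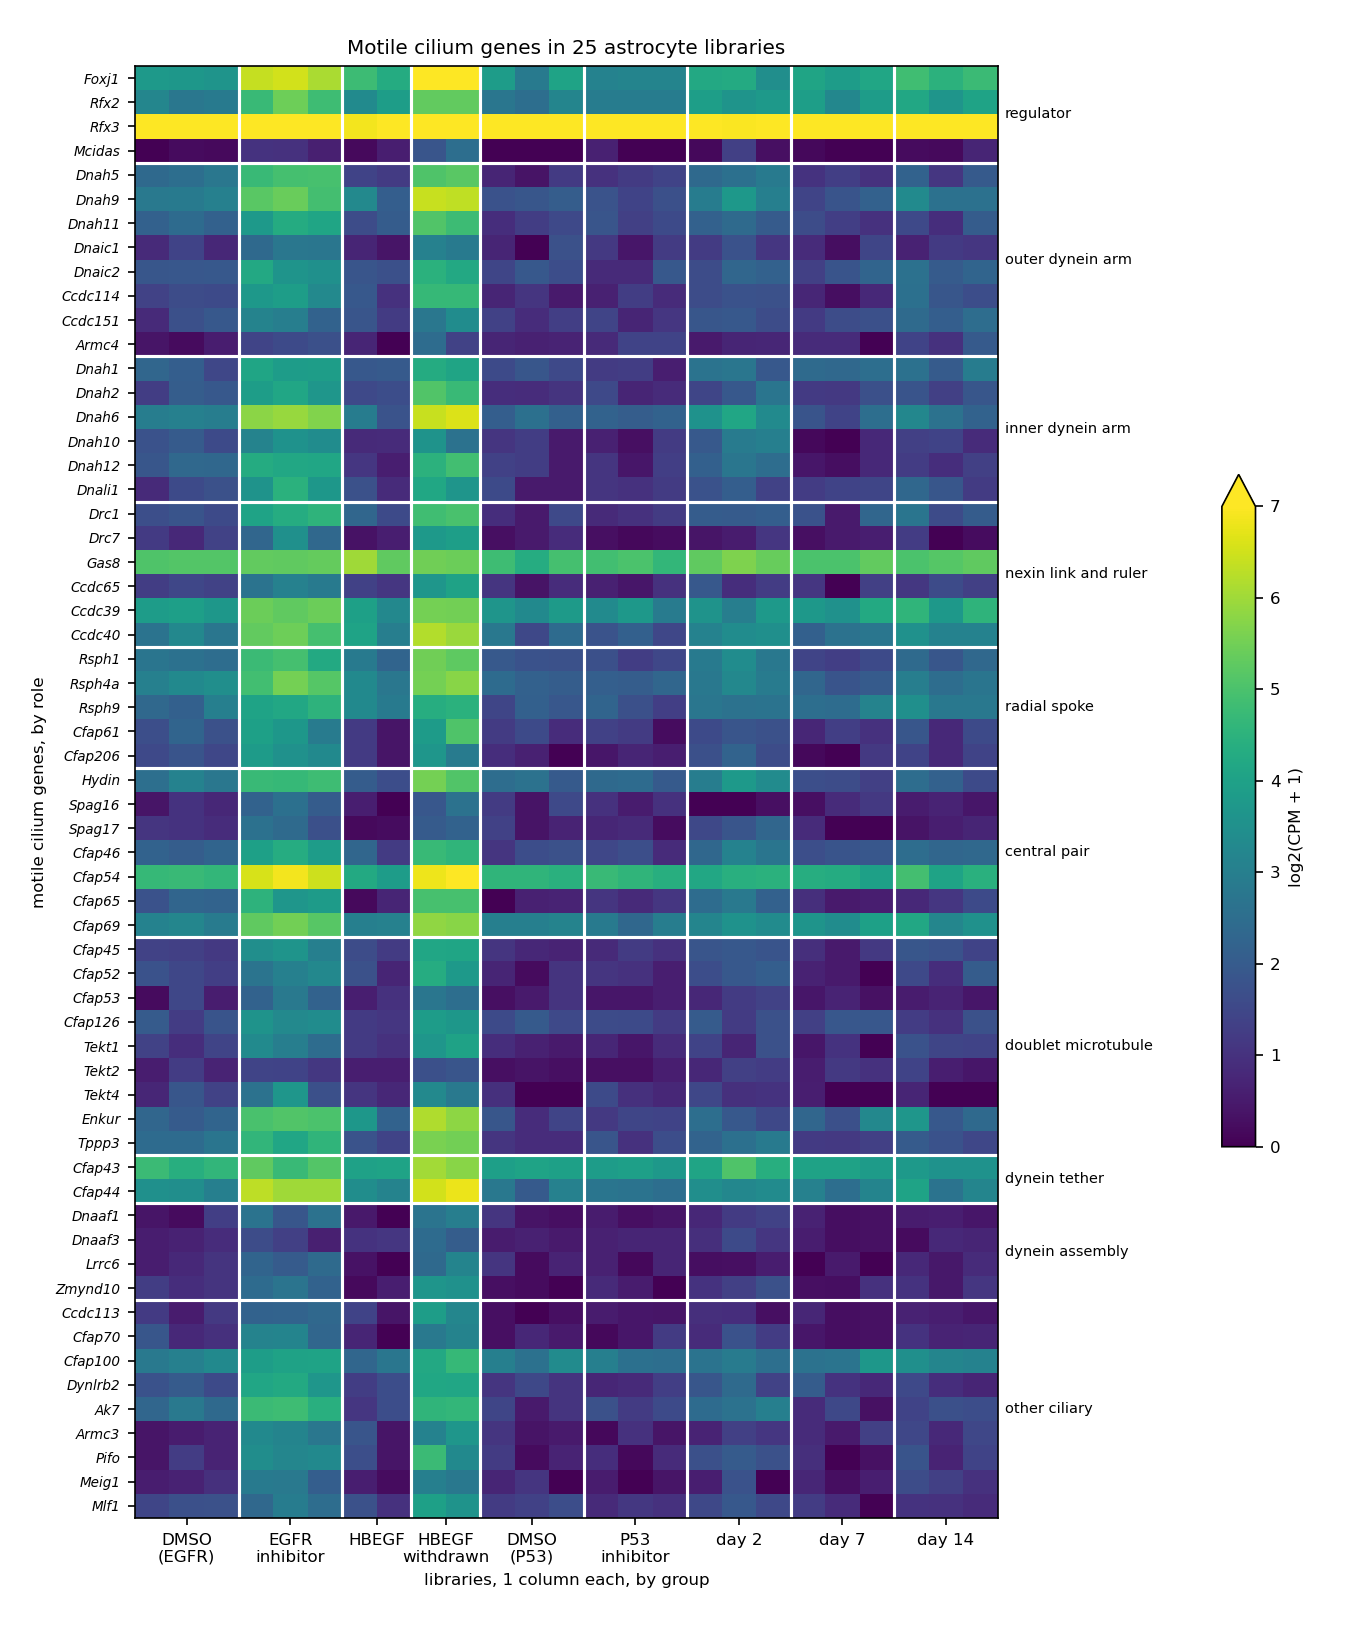
Level of each motile cilium gene (rows, grouped by role) in each of the 25 libraries (columns, grouped by treatment or day), as log2(CPM + 1), with values above 7 shown in the top colour. The 3 columns with EGFR inhibitor and the 2 after HBEGF withdrawal are brighter than the other 20 in most rows; Gas8 and Rfx3 are bright throughout.

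Each log2 change below is on the log2(CPM + 1) scale, which understates the fold of genes with few reads, and is given ± its standard error. A fold is a ratio of mean CPM, given only where the lower group held more than 3 reads in all. The sources do not state whether replicates were separate animals or cultures. Each p-value therefore sets a change against the spread among these libraries alone, which may be technical. That spread was estimated over all 9 groups together. In bulk RNA a smaller number of cells of a type and less RNA per cell cannot be told apart. Counting may have mixed reads of overlapping genes, since the labels do not state its strand setting. For 22 of the 60 genes exons overlap those of another gene, and the largest shares of exon bases lie in Tekt2 (20.8%), Dnaaf1 (20.7%, with Taf1c), Ccdc39 (16.9%, with Ttc14) and Dnaaf3 (12.6%).

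All 12 astrocyte markers were tested, and their summed level was 6059.6 to 6142 CPM with EGFR inhibitor and 1592 to 5255 CPM in the other libraries. Gjb6 had no read in the withdrawal, P53 DMSO and day 2 groups. With EGFR inhibitor 7 of these 12 markers were called higher and 2 lower, and after withdrawal 6 and 2. Libraries of a group differed most in the 12 genes of cell division. Their sum was 1042 CPM in HBEGF replicate 1 and 4471 in replicate 2, and 369.9 in day 7 replicate 3 against 2648 and 2821 in its partners. All 12 were called lower with EGFR inhibitor and 6 after withdrawal, and mitochondrial ribosomal RNA took 22.26 to 25.39% of reads with inhibitor against 18.38 to 18.8% with DMSO, and 27.96 to 29.81% after withdrawal against 17.18 to 18.21%. The part of either in the results was not tested. The withdrawal call count was 59 without HBEGF replicate 1 and 59 without replicate 2.

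Several lists of markers for other cells moved as well. Of 7 tested ependymal markers outside the axoneme, 5 were called higher with inhibitor and 5 after withdrawal (1 lower), with sums of 793 to 900.5 CPM against 495 to 523 and of 600.1 to 633 against 363 to 487; Hdc was at 0 with HBEGF. Of 7 tested choroid plexus markers 3 were called higher and 1 lower with inhibitor and 5 higher after withdrawal, and the sums were 15.6 to 22.3 against 12.3 to 16.3 CPM and 47.6 to 54.3 against 12.3 to 17.0. Ttr, which defines that epithelium, was at 0 in the DMSO, HBEGF and withdrawal libraries and averaged 0.403 ± 0.698 CPM with inhibitor (SD, n = 3). Prlr was at 0 in DMSO, inhibitor and withdrawal libraries, and Kl and Clic6 in HBEGF libraries, with Kl and Kcne2 at 0 after withdrawal. Of 10 tested microglia markers 6 and 8 were called higher, from sums of 7.83 to 12.2 to 22.0 to 46.3 CPM with inhibitor and from 6.47 to 7.43 to 82.4 to 166 after withdrawal, while Tmem119 was at 0 in all 25 libraries. Of 12 neuron markers 10 were called higher with inhibitor and 5 after withdrawal, with 1 lower each time; the sums were 1195 to 1279.6 against 672 to 718 and 768 to 822 against 843 to 905 CPM. Of 10 oligodendrocyte lineage markers 2 were called higher and 3 lower with inhibitor (437 to 538 against 931 to 1170.1 CPM), and 4 and 3 after withdrawal (1141 to 1347 against 1299.8 to 1598). Of 3 tested pericyte markers 2 and 1 were called higher, with Kcnj8 at 0 in all libraries (76.1 to 84.8 against 32.5 to 42.0 CPM, and 78.9 to 92.6 against 36.1 to 39.7). Endothelial markers stayed at or below 8.11 CPM in sum in every library, with Cdh5 at 0 in the inhibitor, HBEGF and withdrawal libraries. Of their 4 tested genes 1 was called lower with inhibitor, and 1 higher and 1 lower after withdrawal. A few genes, named after their values were seen, made up most of some sums. Ependymal Nnat and Cd24a averaged 576 and 214 CPM with inhibitor against 275 and 217 with DMSO. After withdrawal they averaged 422 and 116 CPM against 214 and 190 with HBEGF. Neuronal Map2 averaged 869 against 634 CPM with inhibitor and 516 against 677 after withdrawal. Microglial Lyz2 averaged 84.5 CPM after withdrawal. The part of these cells in the cilium genes' change was not tested.

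Foxj1 (ENSMUSG00000034227.7, chromosome 11, 116330704 to 116335399, minus strand, GRCm38) encodes the forkhead factor that turns on the motile cilium programme. Its level was 12.8, 12 and 11.4 CPM with DMSO and 82.1, 90.8 and 68.6 with EGFR inhibitor. With HBEGF it was 27.1 and 18.7 CPM, and after withdrawal 138 and 165. The groups were far apart in both experiments: Foxj1 rose 6.67-fold with inhibitor (log2 change 2.63 ± 0.23, limma adjusted p = 9.22e-11) and 6.63-fold after withdrawal (2.69 ± 0.28, limma adjusted p = 5.61e-09). In the P53 experiment it was 13.7, 6.37 and 15.7 CPM with DMSO and 7.6, 7.89 and 7.88 with inhibitor, ranges that overlap.

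Rfx2 and Rfx3 encode winged-helix factors that bind the X-box of ciliary promoters. Rfx2 (chromosome 17, 56775897 to 56831013, minus strand) was at 8.22, 5.85 and 6.2 CPM with DMSO and 25.6, 42.5 and 27.2 with EGFR inhibitor. It was at 9.12 and 13.9 with HBEGF and 38.7 in both withdrawal libraries. The rise was 4.7-fold (2.05 ± 0.23, limma adjusted p = 9.88e-09) and 3.36-fold (1.69 ± 0.28, adjusted p = 1.25e-05). Rfx3 (chromosome 19, 27761721 to 28011166, minus strand) was high in every library, between 117 and 414 CPM, and gave the most reads of the 60 genes. It was 151, 148 and 144 CPM with DMSO and 414, 390 and 371 with inhibitor, and 117 and 148 with HBEGF against 271 and 298 after withdrawal. The fold was smaller than for Foxj1, at 2.65 (1.4 ± 0.13, limma adjusted p = 2.3e-10) and 2.14 (1.1 ± 0.16, adjusted p = 1.25e-06).

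Mcidas encodes multicilin, the co-activator that commits cells to many cilia, and it stayed near the limit of detection. It had 2 reads in the 3 DMSO libraries together and 15 in the 3 with EGFR inhibitor, or 0, 0.15 and 0.122 CPM against 1.03, 0.999 and 0.52. With HBEGF it was 0.129 and 0.491 CPM and after withdrawal 2.6 and 4.77, an 11.9-fold rise (1.81 ± 0.35, limma adjusted p = 9.14e-05) that rests on 4 reads with HBEGF. The call with inhibitor (0.75 ± 0.28, adjusted p = 0.0297) was lost without DMSO replicate 1, 2 or 3 (adjusted p = 0.0898, 0.0506 and 0.0566) and without inhibitor replicate 1 or 2 (0.0888 and 0.0837), and under quantile normalization (0.0929).

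**Figure D2:**
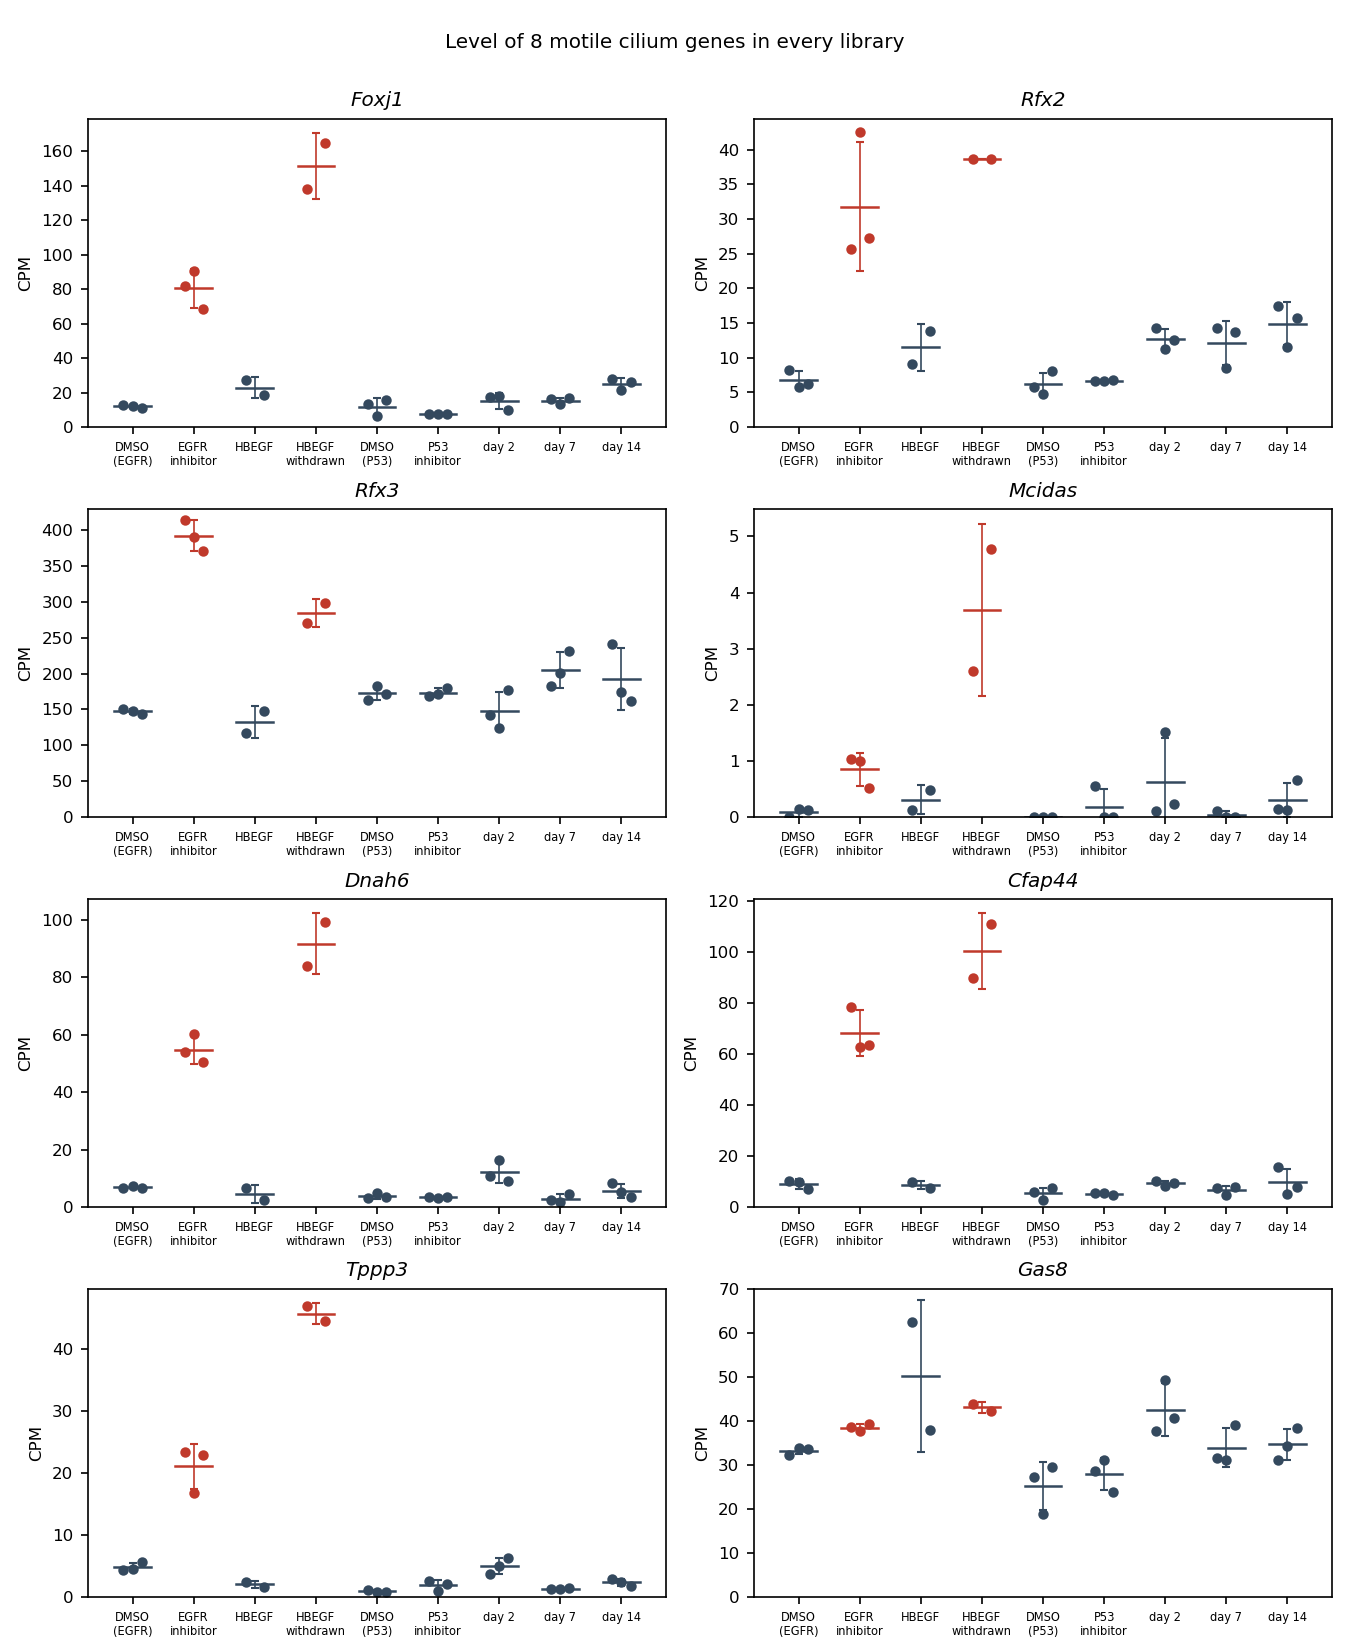
Level in CPM of the 4 regulators, 3 axonemal genes and Gas8 in every library (points), with the mean (bar) and SD (whiskers) of each group; red marks the EGFR inhibitor and HBEGF withdrawal groups. The red points lie above their own controls, except those of Gas8 after HBEGF withdrawal, which overlap theirs. The other 7 groups stay low for Foxj1, Dnah6, Cfap44 and Tppp3.

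The promoters of the genes were searched for the sequences that RFX and forkhead factors are known to bind. RefSeq promoter sequence (GRCm38.p6) was matched by symbol for 50 of the 60 genes, and Foxj1, Armc4, Rsph1, Rsph4a, Cfap54, Cfap65, Cfap53, Tppp3, Dnaaf1 and Lrrc6 were not matched. In the 250 bases before the start, 9 of the 50 (18%) held the RFX X-box consensus on either strand, a pair of inverted repeats with up to 3 bases between them, against 402 of 27025 genes (1.49%). Its single repeat GTTGCC was in 17 of 50 (34.0%) against 11.8% of all genes, and overlapped the X-box in 6 of the 9. The forkhead cores GTAAACA and ATAAACA were in 3 members each (6.0%), against 3.54% and 4.78% of all genes. The 9 genes with an X-box were Dnaic1, Dnaic2, Ccdc151, Hydin, Spag16, Cfap45, Tekt2, Cfap44 and Dynlrb2. A match describes letters in a window, not a bound site. The 60 genes were picked as cilium genes and nearly all were called, so a link between motif and change was not tested.

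The windows of the 4 most abundant X-box genes that were called higher in both experiments are shown on the plus strand of GRCm38, 5′ to 3′, ending before the first annotated UTR base or at the end of the motif, with the X-box in capitals. They are chr16:44394549-44394795 for Cfap44, chr8:110266727-110266976 for Hydin, chr11:114727169-114727411 for Dnaic2 and chr8:116504765-116504976 for Dynlrb2.
Cfap44: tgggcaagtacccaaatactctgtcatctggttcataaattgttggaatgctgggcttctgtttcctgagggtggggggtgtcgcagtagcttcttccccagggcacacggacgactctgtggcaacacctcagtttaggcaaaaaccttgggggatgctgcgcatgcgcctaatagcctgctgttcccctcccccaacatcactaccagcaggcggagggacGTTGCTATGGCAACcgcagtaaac
Hydin: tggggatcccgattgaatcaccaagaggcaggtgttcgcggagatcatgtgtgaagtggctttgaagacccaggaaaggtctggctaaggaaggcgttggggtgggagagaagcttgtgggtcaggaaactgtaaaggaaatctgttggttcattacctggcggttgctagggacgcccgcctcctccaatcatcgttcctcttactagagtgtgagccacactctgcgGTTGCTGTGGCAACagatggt
Dnaic2: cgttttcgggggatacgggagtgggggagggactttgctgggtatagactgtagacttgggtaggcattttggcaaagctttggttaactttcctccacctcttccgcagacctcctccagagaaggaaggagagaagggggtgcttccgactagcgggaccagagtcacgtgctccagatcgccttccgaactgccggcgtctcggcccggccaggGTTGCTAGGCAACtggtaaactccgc
Dynlrb2: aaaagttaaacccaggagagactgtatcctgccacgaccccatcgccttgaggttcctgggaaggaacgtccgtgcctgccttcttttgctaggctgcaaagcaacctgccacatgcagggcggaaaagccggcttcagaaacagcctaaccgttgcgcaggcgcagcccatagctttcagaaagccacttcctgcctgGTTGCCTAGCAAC
The X-box ends 13 bases before the RefSeq start in Cfap44, 7 in Hydin, 20 in Dnaic2 and 38 in Dynlrb2. RefSeq starts can differ from the GENCODE gene coordinates given in this text. In Dynlrb2 the X-box ends at 116504976, and the GENCODE gene starts at 116504974. The Dnaic2 window ends at 114727411, past the GENCODE gene start at 114727408.

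Outer dynein arms carry the heavy chains DNAH5, DNAH9 and DNAH11, the motors that set the beat frequency. All 8 genes of these arms and their docking complexes were called higher in both experiments, with median log2 changes of 1.84 and 2.85. Dnah9, which had the highest mean CPM of the class (chromosome 11, 65831282 to 66168551, minus strand), was at 6.16, 6.45 and 7.29 CPM with DMSO and 36.2, 41.5 and 29.1 with EGFR inhibitor, 5.37-fold higher (limma adjusted p = 5.98e-08). With HBEGF it was 8.87 and 3.27 CPM and after withdrawal 84.7 and 79.7, or 13.5-fold higher (adjusted p = 4.86e-10). The size depended on the HBEGF replicates: the log2 change of 3.68 was 4.28 without HBEGF replicate 1 and 3.08 without replicate 2. Dnah5 (chromosome 15, 28203752 to 28472052, plus strand) was at 4.27, 4.8 and 5.84 CPM with DMSO against 25.9, 29.5 and 30.3, and at 1.67 and 1.31 with HBEGF against 32.6 and 36.0. The rise was 5.75-fold and 23.0-fold, with treated levels close together and HBEGF levels below those with DMSO. Dnah11 went from 3.48, 4.5 and 3.53 to 12.5, 18.8 and 16.3 CPM, and from 2.06 and 3.11 to 33.3 and 26.6. Of the rest, Dnaic1, Dnaic2, Ccdc114, Ccdc151 and Armc4 rose by log2 changes of 1.19 to 2.13 with inhibitor and 1.56 to 3.22 after withdrawal; Armc4, with 5 reads in the HBEGF libraries, lost the withdrawal call without withdrawal replicate 1 (adjusted p = 0.0684).

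The inner dynein arms, which shape the bend of the cilium, showed the largest median of any role with EGFR inhibitor among the classes of more than 2 genes (2.09) and after withdrawal (2.97). All 6 genes were called higher in both. Dnah6 (chromosome 6, 73017606 to 73221651, minus strand) was at 6.79, 7.35 and 6.81 CPM with DMSO and 53.9, 60.1 and 50.3 with inhibitor. With HBEGF it was 6.68 and 2.45 CPM, and 84.0 and 99.0 after withdrawal. That is 7.84-fold (2.8 ± 0.28, limma adjusted p = 1.51e-09) and 20-fold (4.16 ± 0.34, adjusted p = 7.03e-11), the latter 37.3-fold without HBEGF replicate 1. Dnah1 reached 16.3, 13.5 and 13.9 CPM with inhibitor from 3.95, 3.3 and 1.82, and 18.8 and 15.9 after withdrawal from 2.83 and 2.95. For Dnah2 the values were 1.42, 3.15 and 2.8 CPM with DMSO, 13.9, 16.7 and 11.8 with inhibitor, 1.93 and 2.13 with HBEGF, and 33.6 and 25.6 after withdrawal. Dnah12 was at 2.69, 4.2 and 4.01 CPM with DMSO against 18.9, 17.3 and 16.8, and at 1.16 and 0.491 with HBEGF against 21.6 and 28.4. No treated library of these 4 genes fell within the range of its controls.

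Nexin links and the ruler that spaces the arms along the doublet include the gene that was called in neither experiment. Gas8 (DRC4), a link subunit (chromosome 8, 123518834 to 123536650, plus strand), was at 32.4, 33.9 and 33.7 CPM with DMSO and 38.6, 37.8 and 39.3 with EGFR inhibitor. It was at 62.6 and 38.1 with HBEGF and 44.0 and 42.3 after withdrawal. The 3 inhibitor libraries lay above the 3 with DMSO, by 1.16-fold in the mean, and the HBEGF groups overlapped; neither difference was called (log2 change 0.21 ± 0.17, limma adjusted p = 0.335, and -0.18 ± 0.21, adjusted p = 0.544). The other 5 genes of this class were called higher in both. Ccdc39 and Ccdc40 form the ruler. Ccdc39 was at 13.6, 14.4 and 12 CPM with DMSO, 41.7, 38.0 and 42.3 with inhibitor, 14.7 and 8.67 with HBEGF, and 45.1 and 44.5 after withdrawal. Ccdc40 was at 5.37, 8.7 and 5.71 CPM against 39.2, 43.1 and 29.6, and at 15.6 and 7.04 against 71.7 and 60.4. Their folds were 3.05 and 5.66 with inhibitor and 3.84 and 5.85 after withdrawal, where that of Ccdc40 was 9.39 without HBEGF replicate 1. Drc7 was scarce with HBEGF, at 0.257 and 0.491 CPM, and stood at 12.5 and 14.1 after withdrawal; with DMSO it was 1.26, 0.75 and 1.58 and with inhibitor 3.95, 10.5 and 4.16. Drc1 and Ccdc65 rose by 8.52-fold and 4.0-fold with inhibitor.

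Radial spokes link the doublets to the central pair, and all 5 of their genes were called higher in both experiments. Rsph4a, a spoke head gene, was at 7.27, 9.0 and 10.1 CPM with DMSO and 28.2, 45.8 and 34.7 with EGFR inhibitor, and at 9.0 and 5.89 with HBEGF against 45.6 and 53.5 after withdrawal. Rsph1, of the same head, was at 5.54, 5.11 and 4.63 CPM against 26.1, 29.8 and 18.2, and at 6.31 and 3.77 against 43.3 and 37.2. Their folds were 4.12 and 4.86 with inhibitor and 6.65 and 7.99 after withdrawal. Rsph9, the third head subunit, rose by less after withdrawal than with inhibitor: 4.11, 3.45 and 7.05 CPM became 15.8, 17.5 and 22.2 with inhibitor (1.77 ± 0.28), and 9.0 and 6.38 became 19.7 and 21.1 after withdrawal (1.32 ± 0.34). The difference between those changes was not called. Cfap61 was at 2.21, 3.75 and 2.31 CPM with DMSO, 14.8, 12 and 6.59 with inhibitor, 1.29 and 0.327 with HBEGF, and 13.3 and 32.4 after withdrawal; its withdrawal libraries lay far apart, and its log2 change of 3.65 was 4.26 without withdrawal replicate 1 and 3.04 without replicate 2.

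Central pair genes were called higher in both experiments for all 7. Cfap54, a large projection protein and after Rfx3 the gene with the most reads (chromosome 10, 92775619 to 93081618, minus strand), was at 24.8, 25.6 and 23.8 CPM with DMSO and 93.7, 117 and 87.9 with EGFR inhibitor. With HBEGF it was 18.1 and 13.7 CPM, and 113 and 133 after withdrawal. The rise of 4.02-fold (1.95 ± 0.18, limma adjusted p = 1.79e-10) and 7.7-fold (2.88 ± 0.22, adjusted p = 8.31e-12) left no overlap between groups. Cfap69 was at 7.58, 8.25 and 6.56 CPM against 37.8, 44.3 and 35.0, and at 7.07 and 7.36 against 56.3 and 52.7. Hydin, whose loss stiffens cilia and causes hydrocephalus in mice (chromosome 8, 110266977 to 110610253, plus strand), was at 4.9, 7.65 and 5.84 CPM with DMSO and 25.6, 24.6 and 27.4 with inhibitor, and at 3.08 and 2.13 with HBEGF against 45.4 and 33.6. The folds for Hydin, one of the genes whose X-box window is printed above, were 4.22 and 15.2. Cfap65 had the largest log2 change of the 60 genes after withdrawal: 0.129 and 0.655 CPM with HBEGF, or 5 reads in all, against 30.4 and 30.0 (4.51 ± 0.36, limma adjusted p = 3.12e-11). With DMSO it was 2.37, 3.9 and 3.65 CPM and with inhibitor 22.0, 11.7 and 13.3.

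The doublet microtubule class holds proteins that line or cap the doublets. With EGFR inhibitor 8 of 9 were called higher, and after withdrawal 9 of 9. Enkur, an inner doublet protein, was at 3.95, 3.0 and 3.77 CPM with DMSO and 30.7, 33.5 and 31.5 with inhibitor, 8.93-fold higher. Its log2 change of 2.85 ± 0.41 was the largest of the 60 genes with inhibitor. With HBEGF the replicates lay far apart, at 12 and 3.6 CPM, and after withdrawal it was 71.1 and 55.0; the log2 change of 3.04 was 3.79 without HBEGF replicate 1 and 2.3 without replicate 2. Tppp3, a tubulin-binding protein of ciliated cells (chromosome 8, 105467493 to 105471526, minus strand), was at 4.43, 4.5 and 5.59 CPM against 23.4, 16.8 and 22.9, and at 2.44 and 1.64 against 46.8 and 44.5. Its folds were 4.34 (limma adjusted p = 3.15e-07) and 22.4 (adjusted p = 2.61e-11). Cfap126 went from 3.0, 1.35 and 2.55 to 11.2, 8.83 and 9.53 CPM and from 1.29 and 1.15 to 13.6 and 12.1. Tekt2 was not called with inhibitor (0.51 ± 0.27, adjusted p = 0.136), and its withdrawal call (1.19 ± 0.34, adjusted p = 0.00535) was lost when each experiment was fitted alone (0.0596). Tekt4 lost its inhibitor call without inhibitor replicate 2 (adjusted p = 0.0738 in place of 0.00421). Its low values lay up to 0.44 from a whole read, so the CPM of Tekt4 may be off by a constant factor.

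CFAP43 and CFAP44 tether an inner dynein to the doublet. With EGFR inhibitor Cfap44 was called, and the call of Cfap43 depended on the settings. Cfap44 (chromosome 16, 44394796 to 44482428, plus strand), the first of the printed promoters, was at 10.4, 9.9 and 7.05 CPM with DMSO and 78.6, 62.8 and 63.6 with EGFR inhibitor. With HBEGF it was 9.77 and 7.69 CPM, and 90.1 and 111 after withdrawal. The rise was 7.49-fold (2.78 ± 0.27, limma adjusted p = 7.17e-10) and 11.5-fold (3.38 ± 0.33, adjusted p = 1.77e-09). Cfap43 (chromosome 19, 47736857 to 47919287, minus strand) was at 26.3, 20 and 23.6 CPM with DMSO and 38.3, 25.6 and 33.7 with inhibitor, ranges that overlap (0.45 ± 0.19, adjusted p = 0.0571). After withdrawal it rose, from 15.2 and 15.8 to 64.6 and 52.7 CPM (1.85 ± 0.24, adjusted p = 2.49e-07). The inhibitor value sat close to the threshold: it was 0.0488 without DMSO replicate 1, 0.0208 without inhibitor replicate 2, and 0.0421 and 0.0293 without day 2 replicates 1 and 2. It was called higher as well with a filter of CPM 5 (0.0469), median-of-ratios scaling (0.0456), quantile normalization (0.0206), CPM without mitochondrial genes (0.021), each experiment alone (0.0247), array weights (0.0127) and voom (0.0373), and not without DMSO replicate 2 (0.209) or inhibitor replicate 1 (0.233). Of its exon bases 2.32% are shared with Itprip on the same strand.

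Dynein assembly factors fold and pre-assemble the arms in the cytoplasm, and their transcripts gave few reads. With EGFR inhibitor 3 of 4 were called higher, and after withdrawal 4 of 4. Zmynd10 was at 1.42, 0.9 and 1.09 CPM with DMSO and 4.47, 5.5 and 3.64 with inhibitor, and at 0.129 and 0.491 with HBEGF against 11.5 and 10.7. Dnaaf1 was at 0.316, 0.15 and 1.46 CPM against 5.32, 2.66 and 5.2, and at 0.386 and 0 against 5.51 and 6.96. Lrrc6 was at 0.474, 0.75 and 1.09 CPM against 3.78, 3.0 and 4.33, and at 0.257 and 0 against 4.28 and 7.95. In all 3 the treated libraries lay above their controls, on 2 to 4 reads in the HBEGF libraries. Dnaaf3 was not called with inhibitor (0.47 ± 0.27, limma adjusted p = 0.161; 0.0301 without inhibitor replicate 3), and its withdrawal call (adjusted p = 0.00461) was lost without withdrawal replicate 1 (0.0511) and when each experiment was fitted alone (0.0662).

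The remaining 9 ciliary genes were all called higher in both experiments. Cfap100, tied to the inner arms, had the smallest fold among them, at 6.16, 7.35 and 9.0 CPM with DMSO, 13.9, 15.5 and 15.8 with EGFR inhibitor, 3.98 and 5.73 with HBEGF, and 17.7 and 24.8 after withdrawal. Ak7, an adenylate kinase of the axoneme, was at 3.95, 6.15 and 4.25 CPM against 26.1, 27.6 and 20.3, and at 1.16 and 2.13 against 22.8 and 23.8. Dynlrb2, a roadblock light chain of dynein whose promoter is shown above, was at 2.37, 3.0 and 1.95 CPM against 16.7, 18 and 11.8, and at 1.41 and 2.13 against 17.1 and 16.7. The folds of these 3 genes were 2.01, 5.16 and 6.35 with inhibitor and 4.38, 14.2 and 9.55 after withdrawal. Armc3, of 10 reads with DMSO, showed the largest fold of the 60 genes with inhibitor, at 16.6. The others (Ccdc113, Cfap70, Pifo, Meig1 and Mlf1) changed by 0.97 to 2.55 in log2 with inhibitor and 2.43 to 3.0 after withdrawal. The upper end is Pifo, whose withdrawal change was 3.63 and 2.37 without HBEGF replicates 1 and 2, and 2.27 and 3.72 without withdrawal replicates 1 and 2. The withdrawal change of Armc3, 2.28, was 2.99 without HBEGF replicate 1 and 1.57 without replicate 2. Mlf1 lost its inhibitor call under quantile normalization (adjusted p = 0.053).

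Levels were ranked between genes by dividing reads by exon length, which assumes that the counted reads lie in exons. Whether reads from introns were counted was not tested. In CPM per kilobase of exon, Rfx3 (13.4 ± 0.289), Gas8 (8.31 ± 0.202) and Foxj1 (4.6 ± 0.263; SD, n = 3) led the 60 genes with DMSO of the EGFR experiment. With EGFR inhibitor the leaders were Rfx3 (35.5 ± 1.93), Foxj1 (30.7 ± 4.25), Dynlrb2 (27.8 ± 5.87) and Enkur (20.4 ± 0.901), and the means of Foxj1 and Dynlrb2 differed by less than their SDs. With HBEGF the order again began with Gas8 (12.6 ± 4.31) and Rfx3 (12 ± 1.99), whose levels overlapped, before Foxj1 (8.73 ± 2.28; SD, n = 2). After withdrawal Foxj1 stood first (57.8 ± 7.25), followed by Enkur (40.4 ± 7.28), Dynlrb2 (30.4 ± 0.553) and Rsph1 (29.3 ± 3.16), and Gas8 was 13th (10.8 ± 0.302). At the other end Spag17 (0.391 ± 0.0432) and Dnah10 (0.508 ± 0.264) were lowest after withdrawal. The number of genes with a group mean of at least 5 CPM was 16 with DMSO and 49 with inhibitor, and 15 with HBEGF and 54 after withdrawal.

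The 2 changes were also set against each other, in a test of their difference within the same fit. For 55 of the 60 genes the log2 change was larger after withdrawal than with EGFR inhibitor, and the median difference, inhibitor minus withdrawal, was -0.76, where over all tested genes it was 0.09. The test called 9 genes as changed less by the inhibitor and 0 as changed more, against 1.52% and 2.34% of all tested genes. Cfap65 (-2.59 ± 0.46, limma adjusted p = 0.000948), Tppp3 (-2.05 ± 0.4, adjusted p = 0.00237) and Cfap43 (-1.39 ± 0.31, adjusted p = 0.00641) kept that call without each library in turn. The other 6, Dnah5, Dnah12, Drc7, Cfap61, Hydin and Zmynd10, had adjusted p-values of 0.0154 to 0.0411. Without HBEGF replicate 2, 4 of the 60 genes were called, without withdrawal replicate 2 it was 5, and array weights left 3. Dnah12 lost its call without HBEGF replicate 2 (0.0957) or withdrawal replicate 2 (0.0728), and Zmynd10 without HBEGF replicate 1 (0.0963). Hydin lost it without DMSO replicate 2 (0.0743), inhibitor replicates 1 and 2 (0.0502 and 0.0524), HBEGF replicate 2 (0.107) or withdrawal replicate 1 (0.116). Cfap61 did so without DMSO replicates 2 and 3 (0.0925 and 0.056), inhibitor replicate 3 (0.104), HBEGF replicate 2 (0.165) or withdrawal replicate 2 (0.207). Dnah5 and Drc7 lost it without most single libraries of the 2 experiments, at 0.0564 to 0.115 for Dnah5 and 0.0691 to 0.15 for Drc7, where Drc7 also fell out without P53 inhibitor replicates 1, 2 or 3 (0.052, 0.0527 and 0.0511). The 2 experiments had different controls, and for these 9 genes the HBEGF libraries lay lower than the DMSO libraries. The withdrawal libraries also lay above the inhibitor libraries for these genes, apart from Cfap61, where the ranges overlapped. The part of either side in the difference was not tested.

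**Figure D3:**
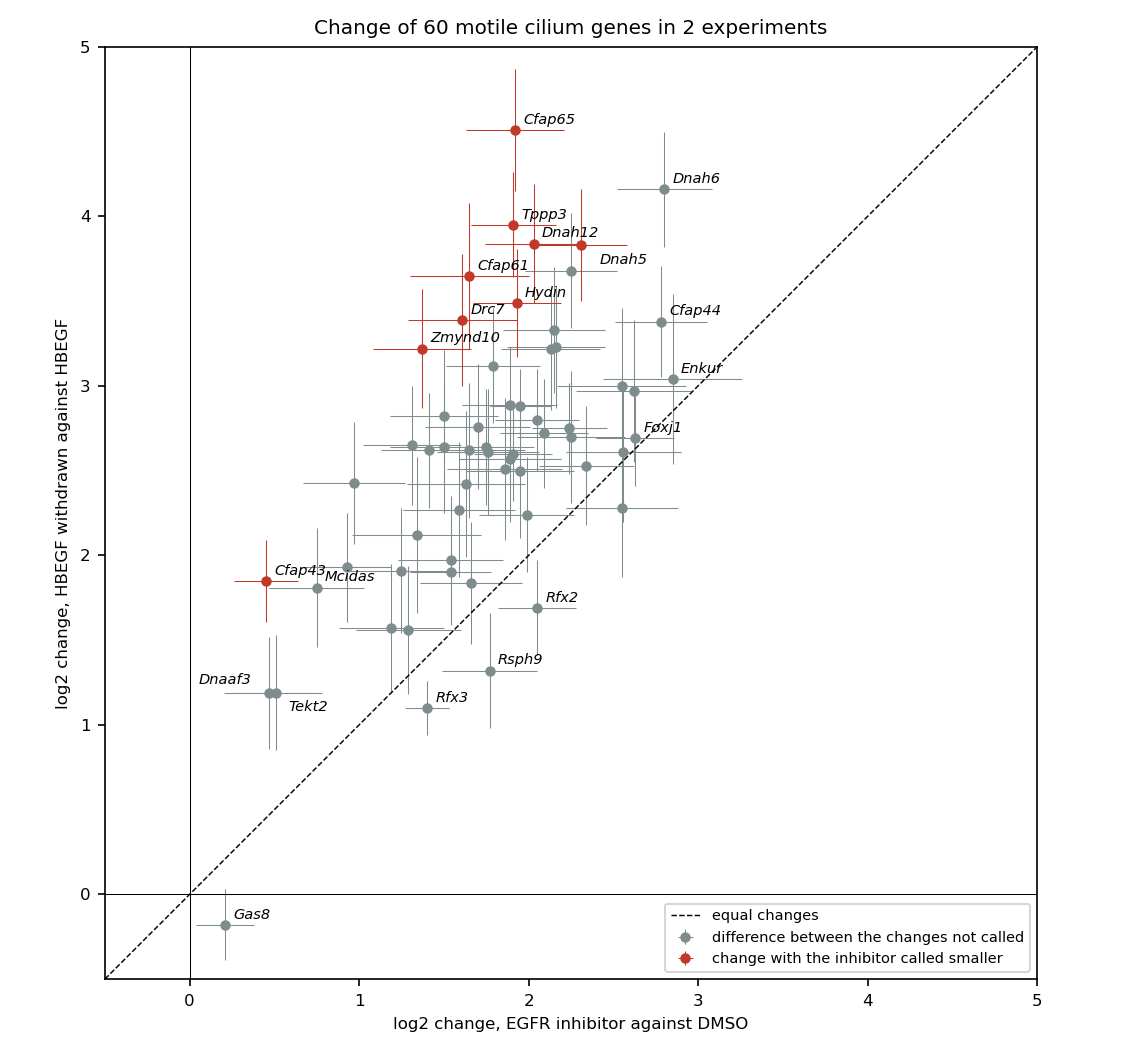
Log2 change of each of the 60 genes with EGFR inhibitor (horizontal) and after HBEGF withdrawal (vertical), with standard errors as bars and a dashed line of equal changes; red marks the 9 genes whose changes differed in the test. Points lie above the line for 55 genes, and Gas8 alone sits near 0 on both axes.

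Against the P53 inhibitor change, the EGFR inhibitor change was called larger for 53 of the 60 genes and smaller for 0, compared with 17.8% and 15.5% of all tested genes. The 7 not called were Mcidas, Armc4, Gas8, Tekt2, Tekt4, Cfap43 and Dnaaf3. In the P53 experiment the 60 genes summed to 347, 334 and 360.2 CPM with DMSO and 344, 335 and 333 with inhibitor, so the groups overlapped, and the log2 changes ran from -0.64 (Dnah1) to 0.78 (Tekt4). The EGFR experiment's DMSO libraries held more of these transcripts than the P53 experiment's, at 258 to 276 CPM against 152 to 188 with Rfx3 left out. That difference between experiments was not tested.

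Over days in culture the changes were smaller, and most of those called were downward. The 60 genes summed to 421, 484 and 479.6 CPM on day 2, 380.2, 377 and 465 on day 7, and 577, 394 and 434 on day 14, and the groups overlapped. From day 2 to day 7 the test called 24 genes lower and 1 higher, against 10.2% and 5.76% of all tested genes. From day 2 to day 14 it called 11 lower and 3 higher, against 17.4% and 7.82%, so that the share called lower (11 of 60) was near the background; with the replicate number as a block, 13 were lower on day 14, with Tekt4 and Dynlrb2 added. Between days 7 and 14 it called 1 higher and 0 lower, against 0.353% and 0.394%. The median log2 change was -0.62 on day 7 and -0.29 on day 14 relative to day 2, and 0.42 from day 7 to day 14, where over all tested genes it was -0.05, -0.12 and -0.07. These comparisons share libraries and are not independent. With median-of-ratios scaling the median over all genes moved from -0.12 to 0 for day 14 against day 2, and that over the 60 genes to -0.17.

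Other lists moved over the same days. Of the 12 astrocyte markers 8 were called higher and 0 lower on day 7, and 8 and 0 on day 14; their sums were 1592 to 2641 CPM on day 2, 3090.1 to 4074 on day 7 and 3124 to 5255 on day 14. Of the 12 cell division genes 5 were called lower on day 7 and 0 on day 14, with sums of 3361 to 5073 CPM, then 369.9 to 2821 and 1734 to 2852. Of the 7 ependymal markers 2 were called higher and 1 lower on either day, with sums of 346 to 436 CPM, then 427 to 679.9 and 295 to 582. Mitochondrial ribosomal RNA took 12.27 to 16.06% of reads on day 2, 18.93 to 19.42% on day 7 and 20.2 to 23.89% on day 14. In each of the other marker lists at most 3 genes were called in either direction on either day. The part of these shifts in the cilium genes' change was not tested.

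The fall by day 7 ran through most roles: 4 of 8 outer arm genes, 3 of 6 inner arm genes, 3 of 5 spoke genes, 4 of 7 central pair genes, 3 of 9 doublet genes, 2 of 4 assembly factors, 1 of 6 link and ruler genes and 4 of the other 9 were called lower, and 0 of the 4 regulators. Some of these calls depended on the settings. The link and ruler call, Ccdc40 (limma adjusted p = 0.0455), was lost with median-of-ratios scaling (0.0664), quantile normalization (0.0542) and voom (0.0697). The assembly calls, Zmynd10 (0.0423) and Dnaaf3 (0.0322), were lost with median-of-ratios scaling (0.0634 and 0.0502) and voom (0.0796 and 0.0951). Voom also lost Dnah11, Cfap46, Cfap70, Pifo and Mlf1. Dnah6 was at 10.9, 16.5 and 9.24 CPM on day 2, 2.54, 1.66 and 4.74 on day 7, and 8.38, 5.2 and 3.63 on day 14. All day 7 libraries were below all day 2 libraries, a 4.11-fold fall (-1.77 ± 0.28, limma adjusted p = 3.12e-05). Hydin was at 6.81, 12.6 and 9.47 CPM, then 2.19, 2.08 and 1.5, then 4.64, 3.55 and 1.98, 5.01-fold lower on day 7 (adjusted p = 5.85e-06) and 2.84-fold lower on day 14 (adjusted p = 0.000341). Dnah12, at 3.4, 5.66 and 4.62 CPM on day 2, was 0.346, 0.208 and 0.748 on day 7 and 1.35, 0.888 and 1.49 on day 14. Ak7 followed the same order, with 4.43, 5.22 and 7.16 CPM, then 0.807, 1.87 and 0.249, then 1.65, 2.28 and 2.15. Cfap65 was at 4.54, 6.09 and 3.47 CPM, 0.922, 0.416 and 0.498, and 0.748, 1.14 and 1.98. Dnah12, Ak7, Cfap65 and Hydin kept both calls without each library in turn. Dnah6 lost its day 14 call (adjusted p = 0.00802) without day 14 replicate 3 (0.0674) or day 2 replicate 2 (0.0787). Day 7 replicate 3 was the library with few cell division transcripts, and without it 20 genes were called lower on day 7.

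None of the 4 regulators among the 60 was called lower on either day. Of all tested genes 10.2% were lower on day 7 and 17.4% on day 14, and among 4 genes a count of 0 is near those shares. Of 14 other regulators of multiciliation 4 were lower on day 7 and 3 on day 14, the latter near the share of all genes. Foxj1 was at 17.7, 18.3 and 9.94 CPM on day 2, 16.1, 13.5 and 16.7 on day 7, and 27.7, 21.7 and 26.1 on day 14. Its rise by day 14 (0.72 ± 0.23, limma adjusted p = 0.0176) was lost without day 2 replicate 3 (0.163) or day 14 replicate 1 (0.0756). Rfx2 was not called, at 14.3, 11.3 and 12.5 CPM, 14.3, 8.53 and 13.7, and 17.5, 11.5 and 15.7. Rfx3 was at 142, 124 and 177 CPM, then 182, 201 and 232, then 241, 174 and 162. It was called higher on day 7 (0.48 ± 0.13, adjusted p = 0.0082), a call lost without day 2 replicate 2 (0.0906) or day 7 replicate 3 (0.0607), and on day 14 (adjusted p = 0.0301), lost without day 14 replicate 1 (0.31) or day 2 replicates 1 and 2 (0.0766 and 0.22). Mcidas had 0.103, 1.52 and 0.231 CPM on day 2 and at most 0.661 CPM in any later library. Ccdc39 was also called higher on day 14 (0.84 ± 0.24, adjusted p = 0.0101), except without day 14 replicate 1 or 3 (0.0722 and 0.0554) or day 2 replicate 2 (0.104). Ccdc114, at 0.692, 0.208 and 0.748 CPM on day 7 and 4.94, 2.66 and 2.15 on day 14, was the single call between those days (adjusted p = 0.0115), lost without day 14 replicate 1 (0.0892) or day 7 replicate 2 (0.0801).

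**Figure D4:**
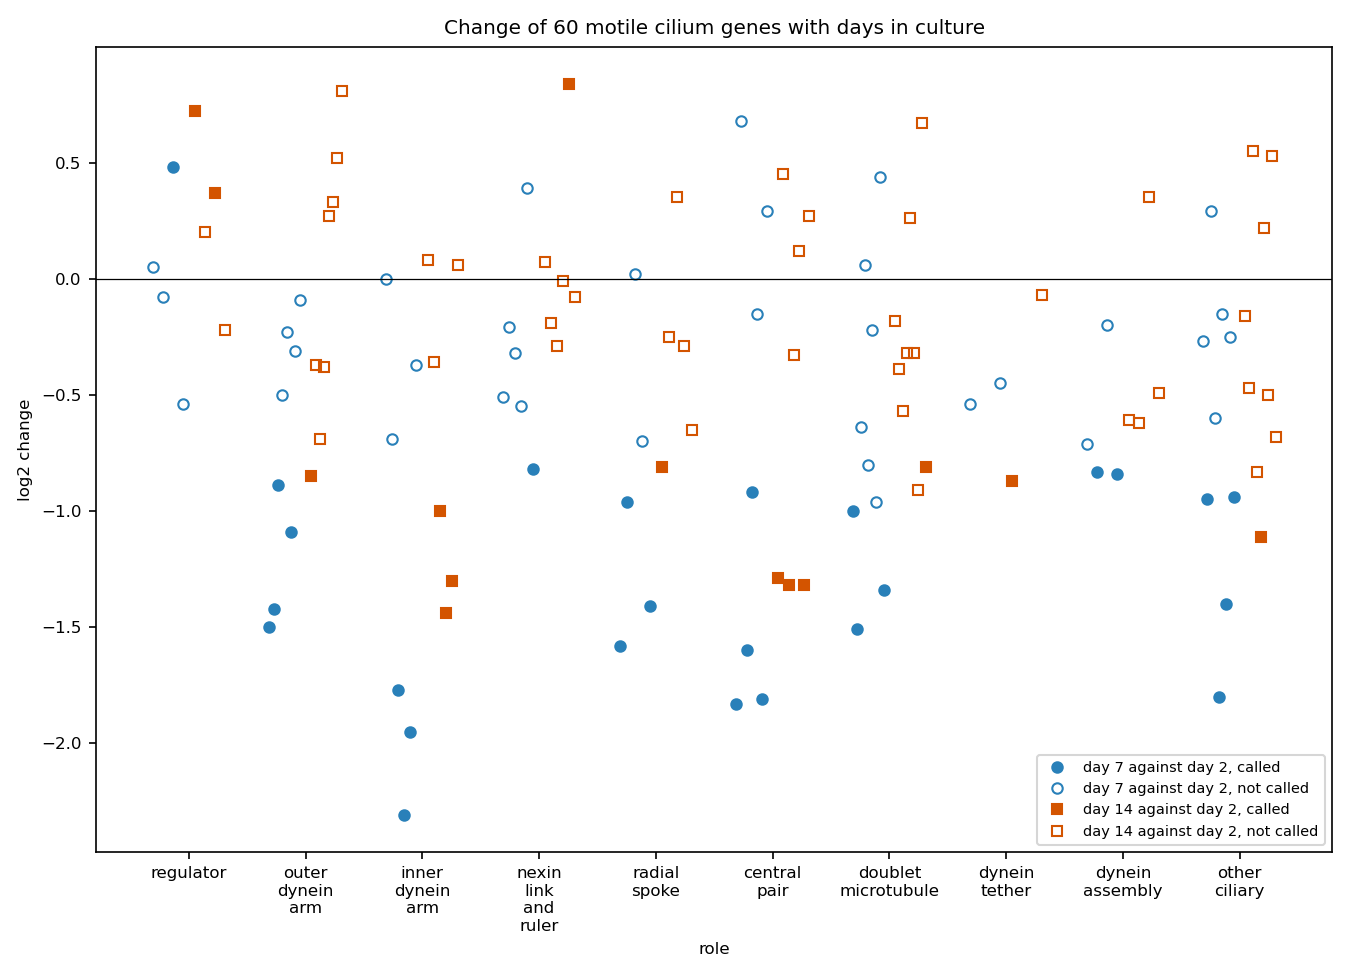
Log2 change of each of the 60 genes on day 7 (blue circles) and day 14 (orange squares) against day 2, by role; filled symbols were called by limma. The regulators lie near or above 0 apart from Mcidas on day 7 (-0.54, not called), and the lowest filled symbols, down to -2.31 for Dnah10, are inner arm and central pair genes on day 7.

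Other motile cilium genes, from lists written for this work beside the 60, were mostly called in the same direction in the EGFR inhibitor and withdrawal comparisons. These lists were chosen with earlier results of these data known, so their counts are not independent support. Of 106 further genes of the axoneme and its assembly 97 were tested; 71 were called higher and 3 lower with EGFR inhibitor, where 22.5% and 20.7% of all tested genes were, and 74 higher and 1 lower after withdrawal, against 15.9% and 20.1%. With the P53 inhibitor 0 were called. On day 7, 2 were called higher and 20 lower, against 5.76% and 10.2% of all tested genes, and on day 14, 3 higher and 5 lower, both below the background of 7.82% and 17.4%. Their median log2 change was 1.38 with inhibitor and 1.83 after withdrawal. The 5 with the lowest p in the inhibitor comparison were Ubxn10, Nme5, Spag1, Lrrc23 and Kif9. Nme5, a radial spoke protein, was 28.9 ± 4.14 CPM against 4.82 ± 0.967 with DMSO (SD, n = 3) and 51.0 ± 13.1 after withdrawal against 6.37 ± 2.07 (SD, n = 2). Kif9, a kinesin of the central pair, was 23.3 ± 7.4 against 2.9 ± 0.693 CPM and 32.2 ± 2.87 against 4.63 ± 2.01. Lrrc23 was 19.2 ± 2.96 against 2.8 ± 0.832 CPM with inhibitor, Ubxn10 7.3 ± 1.86 against 0.511 ± 0.085, and Spag1, a dynein assembly factor, 44.7 ± 1.44 against 13.2 ± 1.98. Called lower with inhibitor were Cfap20, Cfap36 and Dnaaf5, and after withdrawal Cfap36 (named after their values were seen).

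Regulators of multiciliation outside the 60 were mixed. Of 14 tested, 6 were called higher and 3 lower with EGFR inhibitor, against 22.5% and 20.7% of all tested genes, and 8 and 4 after withdrawal, against 15.9% and 20.1%; the shares called lower were near the background. On day 7, 0 were called higher and 4 lower (Myb, E2f4, Deup1 and Rfx1), against 10.2% lower of all tested genes, and on day 14, 0 and 3 (Myb, E2f4 and Rfx7), against 17.4%. The genes named here were chosen after their values were seen. Gmnc, which encodes GEMC1, was 3.34 ± 1.15 CPM with inhibitor against 0.644 ± 0.352 with DMSO (limma adjusted p = 0.000165) and 10.6 ± 4.4 after withdrawal against 0.485 ± 0.223 with HBEGF (adjusted p = 6.42e-08). Deup1, which builds the platforms on which extra centrioles form, was 11.3 ± 1.04 against 1.34 ± 0.932 CPM and 17.6 ± 6.65 against 2.35 ± 0.313. Trp73 (5.37 ± 2.35 against 0.856 ± 0.17 CPM with inhibitor), Ccno, Cdc20b and Foxn4 were called higher in both. Foxn4 had no read in the DMSO or HBEGF libraries. E2f5, Rfx4 and Rfx7 were called lower in both, and E2f4 after withdrawal (19.0 ± 1.02 against 32.4 ± 2.83 CPM, adjusted p = 0.00157) but not with inhibitor (adjusted p = 0.141). Rfx4, an RFX factor of neural progenitors and astrocytes, was 207 ± 13.5 against 681 ± 44.9 CPM with inhibitor (adjusted p = 9.15e-05) and 142 ± 8.63 against 338 ± 190.3 after withdrawal (adjusted p = 0.0159). Rfx2 and Rfx3 were called higher in both experiments.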

How the data were processed

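RNA from 25 libraries in 9 groups was measured by RNA-seq; per the labels' protocols, libraries were made from total RNA with the Ovation V2 and NEBNext Ultra kits. The authors deposited RPKM values per gene; STAR, HTSeq, edgeR, limma and GRCm38 are named in the submitters' processing notes, but not their versions, an annotation release or a strand setting (not given in the sources used here). Each RPKM was multiplied by the gene's span in GENCODE M21 (53713 of 54429 entries matched, 98.7%) to give CPM: totals were then 999128 to 1002611, and 377054 to 519436 with exon length. At the recovered depth, 99.05 to 99.29% of values of up to 20 reads lay within 0.1 of a whole number. The test was planned on log2(CPM + 1) because span-based RPKM is low for long genes: 13725 genes and 13 of the 60 members pass an RPKM of 1 in 2 libraries.

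The 19805 genes that reached a CPM of 1 in 2 or more libraries were fitted with limma 3.58.1 in R 4.3.3 (trend and robust) as 1 model of 9 groups with 16 residual degrees of freedom. There were 6 comparisons and 2 differences between changes, each with Benjamini-Hochberg adjustment over all tested genes. No 2 libraries were duplicates (highest correlation 0.992). Deviations of same-numbered libraries from their group means correlated above 0.1 in all 3 pairs between day 2 and day 14 (0.124 to 0.339), which no other pair of groups showed in every pair (-0.357 to 0.136); the pairing there comes from these values, not from the labels. The fit was tested on simulated data. Depth limits genes of few reads, for which counting error is large. Values in every library are given for the regulators, the 3 members of highest mean CPM in each role and those whose changes with inhibitor and after withdrawal differed in the test. The members and lists were chosen with earlier results of these data known. Alternatives covered scale, pseudocount, filters, scaling, samples, block, weights and voom. Tables were handled with Python 3.11.15 and pandas 2.3.3.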

Additional observations from a re-analysis of the deposited data

How the results depend on the processing

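With 1 library left out, 56 genes called with EGFR inhibitor became 55 to 57, 59 after withdrawal 57 to 59, and 53 in the EGFR against P53 difference 50 to 53. The 24 called lower on day 7 became 17 to 25 and the 11 on day 14 became 8 to 12. The 9 that differed between inhibitor and withdrawal became 4 to 13. The 3 called higher on day 14 became 0 to 4 (0 without day 14 replicate 1), the 1 higher on day 7 became 0 to 1 (0 without day 2 replicate 2 or day 7 replicate 3), and the 1 between days 7 and 14 became 0 to 2.

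On the deposited scale, log2(RPKM + 1), 13 members were tested and the counts were 12 with inhibitor, 12 after withdrawal, 12 in the difference from P53, 2 in the difference from withdrawal, 1 higher and 1 lower on day 14, 0 higher and 2 lower on day 7, and 0 between days 7 and 14; fewer genes were tested there. The difference from withdrawal gave 5 genes with log2(CPM + 0.25) and 3 with array weights. In the difference from P53, voom lost the calls of Dnah5, Dnaic1, Ccdc151, Ccdc65, Cfap206, Spag17, Cfap65, Cfap52, Tppp3, Zmynd10, Ccdc113 and Ak7. Their limma adjusted p-values with voom ran from 0.0516 (Ccdc151) to 0.63 (Ccdc113). Voom also lost the day 7 calls of Dnah11, Ccdc40, Cfap46, Dnaaf3, Zmynd10, Cfap70, Pifo and Mlf1. With each experiment fitted alone, 0 genes were higher on day 7 and 0 between days 7 and 14, and that fit cannot give the 2 differences between changes. Between days 7 and 14 median-of-ratios scaling, quantile normalization, CPM without mitochondrial genes and array weights each gave 2, and voom 0. The causes were not tested. With the P53 inhibitor 0 genes were called under every setting run.

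The labels do not say what a replicate number marks. With the replicate block 56 and 59 genes were called with inhibitor and after withdrawal, 7 and 53 in the 2 differences, 3 higher and 13 lower on day 14, 1 and 24 on day 7, and 1 between days 7 and 14; Tekt4 and Dynlrb2 gained a day 14 call, Tekt4 gained and Dnaaf3 lost a day 7 call, and Dnah5 and Drc7 lost theirs in the difference between inhibitor and withdrawal, with no other call of the 60 genes changed. Over the 60 genes and 8 tests, 123 results lost and 46 gained a call with 1 library left out (11831 did neither), and 110 and 44 under other settings (5054 did neither); no called change turned direction.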
